A study of Mus musculus with 4 samples.

Results

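The cells described here, called adipocyte-like, were the 69 of 22049 kept cells (0.313%) that carried the transcripts of an adipocyte, a share of the captured cells that passed the filters and not of the cultures. A cell was included when it held at least 10 transcript molecules, counted as unique molecular identifiers (UMIs), summed over the 5 adipocyte genes Adipoq, Plin1, Cidec, Retn and Cfd, with at least 2 of them detected, and these 5 are called gate genes below. Kept cells were barcodes with at least 5000 UMIs, at least 1500 genes and at most 20% of UMIs from mitochondrially encoded genes. All samples were C3H 10T1/2 cells, a mouse line of mesenchymal progenitor cells (MPC), profiled as single cells by droplet capture, with 1 library for each of 4 conditions. The cells expressed transgenic H3WT, wild-type histone H3.1, or H3R26C, in which the arginine at position 26 of the histone tail is replaced by cysteine, and each line received DMSO, the vehicle, or 5-azacytidine (5-Aza), an inhibitor of DNA methyltransferases. The transgene was delivered by lentivirus with puromycin selection, was driven by an EF1 promoter and carried C-terminal HA and FLAG tags, and the endogenous H3 genes stayed in place in all 4 samples. Per the study's methods, exposure to 5-Aza lasted 24 h at 3 uM, cells treated in this way were harvested at day 28, and the day of harvest of the DMSO cells is not given there, so that treatment and time in culture cannot be told apart. With 1 library per condition no difference between conditions was tested, and every interval below covers counting error only.

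Adipocytes store fatty acids as triglyceride in a lipid droplet coated by perilipins and release them again by lipolysis, and they secrete hormones termed adipokines. The nuclear receptor PPARG, paired with a retinoid X receptor, and the factors of the C/EBP family switch on and maintain this programme. C3H 10T1/2 cells are a classical model of lineage choice, since a pulse of 5-azacytidine can yield fat, muscle and cartilage cells from the same line.

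The rule used 5 genes that mark mature fat cells. Adipoq encodes adiponectin, Retn encodes resistin and Cfd encodes adipsin, which are secreted, while Plin1 encodes the perilipin that coats the fat droplet and Cidec encodes a protein of droplet fusion. In the GRCm38 (mm10) assembly used by the authors, Adipoq lies on the plus strand at chr16:23146536-23158028, Plin1 on the minus strand at chr7:79720218-79732903, Cidec on the minus strand at chr6:113424634-113435760, Retn on the plus strand at chr8:3655770-3660110 and Cfd on the plus strand at chr10:79890853-79892655. These genes mark the same programme, and the DNA before the starts of Adipoq, Plin1, Cidec and Pparg was read from the RefSeq promoter windows of GRCm38.p6, and the sequences that carry or lack the letters of a C/EBP site are shown 5′ to 3′ on the strand of the gene, with matches to TTGCNNAA on either strand in capitals. The Adipoq window, chr16:23146286-23146535 just upstream of the gene, held no match, the Plin1 stretch, chr7:79732904-79733026 upstream of every annotated exon, held 1 at position -187 from the start (another, at -58, lies in an annotated exon and is not shown), a Cidec window, chr6:113434765-113435014 before an internal start of the gene, held 1 at -198, and a Pparg window, chr6:115421816-115422065 before an internal start of that gene, held 2, at -215 and -16, the latter on the opposite strand. Other windows of these genes are not shown, and the Cidec window upstream of the gene, chr6:113435761-113436010, and the Pparg stretch chr6:115362099-115362291 held no match.
Adipoq: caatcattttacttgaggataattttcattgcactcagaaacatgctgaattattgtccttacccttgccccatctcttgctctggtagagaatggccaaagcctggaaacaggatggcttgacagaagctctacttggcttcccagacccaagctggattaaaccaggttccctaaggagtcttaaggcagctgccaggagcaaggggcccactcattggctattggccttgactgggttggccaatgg
Plin1: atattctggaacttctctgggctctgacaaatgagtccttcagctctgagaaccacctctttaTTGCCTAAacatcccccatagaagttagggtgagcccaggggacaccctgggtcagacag
Cidec: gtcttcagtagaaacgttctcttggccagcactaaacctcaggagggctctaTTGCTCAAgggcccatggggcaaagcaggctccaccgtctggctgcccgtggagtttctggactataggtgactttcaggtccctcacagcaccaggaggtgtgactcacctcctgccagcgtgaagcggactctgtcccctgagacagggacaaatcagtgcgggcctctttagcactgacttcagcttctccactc
Pparg: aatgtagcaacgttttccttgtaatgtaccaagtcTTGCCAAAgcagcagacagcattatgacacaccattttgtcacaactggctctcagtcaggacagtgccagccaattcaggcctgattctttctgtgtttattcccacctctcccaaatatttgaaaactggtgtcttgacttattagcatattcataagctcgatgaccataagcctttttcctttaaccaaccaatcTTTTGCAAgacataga
Among 78 genes, the gate genes and the genes of the adipocyte lists below that were called higher, 57 had such windows, 86 in all, each of 250 bases before a start. TTGCNNAA was found in 8 of the 86 windows (9.30%) and in 9.56% of all 32851 windows, so that its share in these genes was close to that of promoters in general. The nuclear receptor core AGGTCA was found in 13 of 86 windows (15.1%) against 14.0% of all windows, and the longer DR1 element, which PPARG binds together with RXRA and which was searched as a pair of AGGNCA cores 1 base apart, N being any base, in 0 of 86 against 0.338%, where an AGGTCA match can be part of a DR1 match. A match of letters is a description, and its absence says only that these letters are not in this window.

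The 69 cells came from all 4 libraries, with 12 of 3710 kept cells in H3WT with DMSO, 29 of 5993 in H3WT with 5-Aza, 13 of 4727 in H3R26C with DMSO and 15 of 7619 in H3R26C with 5-Aza, and this order of libraries is kept throughout. The shares were 0.323% (exact 95% interval 0.167% to 0.564%), 0.484% (0.324% to 0.694%), 0.275% (0.147% to 0.470%) and 0.197% (0.110% to 0.325%). With 5-Aza the share in H3R26C was 0.407 of that in H3WT (exact 95% interval 0.203 to 0.784), and with DMSO it was 0.850 of it (0.358 to 2.04). Within H3WT the share with 5-Aza was 1.496 times that with DMSO (0.740 to 3.22), and within H3R26C it was 0.716 times (0.318 to 1.63). The counting interval of the H3R26C to H3WT ratio with 5-Aza thus lay below 1, and the other 3 intervals included 1, but this depended on the filter. Whether these ratios exceed the spread between cultures could not be judged from 1 library each. Under a stricter filter on cells, with at least 10000 UMIs, at least 2500 genes and at most 10% mitochondrially encoded UMIs, 5 of 3547 cells remained adipocyte-like in H3WT with DMSO (0.141%), the ratio of H3R26C to H3WT with 5-Aza became 0.516 with an interval that included 1 (0.244 to 1.05), and the ratio of 5-Aza to DMSO in H3WT became 3.34 with an interval above 1 (1.23 to 11.3). The ratio of H3R26C to H3WT with DMSO changed direction, to 1.76 under this filter (0.564 to 6.46), 1.18 with cells thinned to 5000 UMIs before the gate (0.443 to 3.32) and 1.02 with at least 3 gate genes (0.413 to 2.60).

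**Figure D1:**
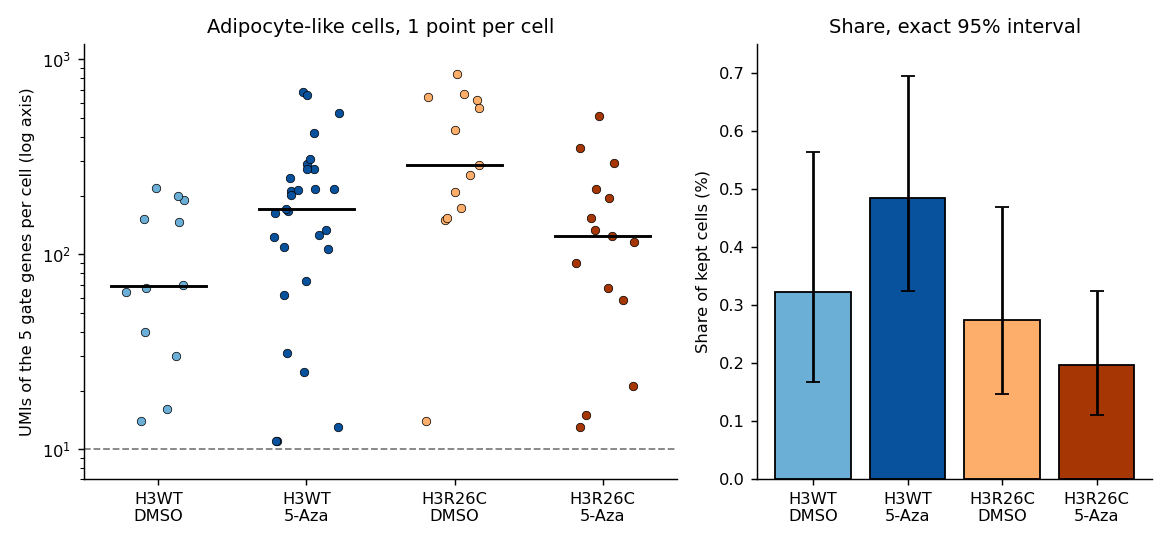
UMIs of the 5 gate genes in each adipocyte-like cell by library (left, log axis, black lines are medians and the dashed line is the threshold of 10), and the share of adipocyte-like cells among kept cells in % (right, bars with exact 95% intervals for counting error). The cells range from 11 to 837 gate UMIs, and the share is highest in H3WT with 5-Aza (0.484%) and lowest in H3R26C with 5-Aza (0.197%).

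The libraries held 89918846, 93489599, 86080659 and 117738555 UMIs, and the adipocyte-like cells 264042, 523516, 309574 and 288066 of them, so that 3 UMIs corresponded to between 5.73 and 11.4 CPM (the UMIs of a gene summed over the cells of a class in a library, per 1000000 UMIs of those cells). A cell of this class held between 5914 and 43856 UMIs with a median of 20136, and between 1581 and 5925 genes with a median of 4477. Cells were compared throughout with the marker-negative cells of the same library, the kept cells without any UMI of the 5 genes, which numbered 3611, 5764, 4599 and 7511. Median UMIs per cell were 21606.5 in adipocyte-like and 22455 in marker-negative cells of H3WT with DMSO, and 17263 against 13138.5, 25251 against 16592 and 21270 against 13121 in the other libraries. The share of mitochondrially encoded UMIs had medians of 11.9%, 6.64%, 6.87% and 3.29% in adipocyte-like cells against 3.84%, 2.86%, 2.74% and 2.55% in marker-negative cells, so that it was higher in the adipocyte-like cells of every library and highest in H3WT with DMSO, where 7 of 12 cells lay above 10%. Its part in the results below was not tested, and the count of genes called is also given under the stricter filter, which lowers the limit on this share and raises the minimum of UMIs and genes together. The libraries shared between 54 and 228 barcode sequences pairwise.

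Few cells lay just under the threshold of 10 gate UMIs. Some members lay just above it, since a gate of at least 20 UMIs left 10, 26, 12 and 13 adipocyte-like cells per library. Of the kept cells, 82, 192, 109 and 90 per library held 1 to 4 gate UMIs (2.21%, 3.20%, 2.31% and 1.18%), whereas only 4, 6, 6 and 1 cells held 5 to 9. The lowest adipocyte-like cell of each library held 14, 11, 14 and 13 gate UMIs, the highest cell under the threshold held 8, 9, 8 and 9, and a further 1, 2, 0 and 2 cells reached 10 UMIs with a single gene and stayed out. The adipocyte-like cells held between 83.7% and 98.7% of the UMIs of each gate gene among the kept cells of each library, which follows in part from the rule that chose them. Cells with at least 50 UMIs of skeletal muscle markers should lack these genes, and those that were not adipocyte-like were looked at. A gate UMI was held by 8 of 263 (3.04%) in H3WT with 5-Aza and 6 of 369 (1.63%) in H3R26C with 5-Aza. This level was of the same order as the low counts in kept cells at large. A further 1 such muscle-rich cell of H3R26C with 5-Aza passed the gate and is not in these counts, so that they leave out the highest gate counts by design.

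The 5 gate genes were not expressed alike in every adipocyte-like cell. Adipoq was found in 68 of 69 cells, Plin1 in 65, Cfd in 64, Cidec in 50 and Retn in 40, and all 5 genes in 36 cells, 4 genes in 16 and 2 or 3 genes in 17. The cells with all 5 genes made up 3 of 12 in H3WT with DMSO, 17 of 29 in H3WT with 5-Aza, 9 of 13 in H3R26C with DMSO and 7 of 15 in H3R26C with 5-Aza. Summed over the cells of a library, Adipoq was at 2257, 3532, 4180 and 4318 CPM. Retn was at 83.3, 1708, 2054 and 579.7 CPM, and Cfd at 1901, 5534, 8812 and 2451 CPM. Retn and Cfd were thus lowest in H3WT with DMSO and highest in H3R26C with DMSO, while Adipoq varied less between libraries. In H3WT with DMSO, 18 of the 22 Retn UMIs came from 1 of the 12 cells. Plin1 was at 238.6, 414.5, 639.6 and 562.4 CPM, and Cidec at 90.9, 408.8, 458.7 and 263.8 CPM. These 5 genes chose the cells, so their levels are a description and none of them was tested.

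The adipocyte label was checked on 10 adipocyte genes that the rule did not use. A UMI was found for Fabp4, which encodes the fatty acid carrier of fat cells, in 65 of the 69 cells, for Pparg in 62, for Cebpa, which encodes C/EBP alpha, in 64, for Lpl, lipoprotein lipase, in 65, for Lipe, hormone-sensitive lipase, in 66, for Pnpla2, adipose triglyceride lipase, in 68, and for Plin4, a perilipin, in 64. The fatty acid transporter Cd36 was found in 23 cells, the insulin-responsive glucose transporter Slc2a4 in 20, and leptin (Lep) in 1 of 69. To compare cells at the same depth, each cell was thinned to 5000 UMIs. A Fabp4 UMI was then found in 83.3%, 96.6%, 100% and 80.0% of adipocyte-like cells and in 4.65%, 15.8%, 3.02% and 18.4% of marker-negative cells, and without thinning in 100%, 96.6%, 100% and 80.0% against 16.1%, 28.6%, 7.74% and 31.8%. For Pparg the thinned shares were 16.7%, 69.0%, 92.3% and 66.7% against 12.2%, 10.8%, 11.4% and 7.54%, so that in H3WT with DMSO, where 2 of 12 thinned cells held a UMI, the shares of both classes were close at this depth. Without thinning the Pparg shares were 83.3%, 86.2%, 100% and 93.3% against 40.2%, 24.9%, 33.1% and 17.3%, so that in H3WT with DMSO, where both classes had similar median UMIs, the share of adipocyte-like cells was the higher. Most of the programme was therefore present beyond the 5 genes, with leptin close to absent and Cd36 and Slc2a4 in a minority of cells.

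The 4 adipocyte-like cells without Fabp4 were 1 of H3WT with 5-Aza and 3 of H3R26C with 5-Aza. They held 13, 510, 15 and 90 gate UMIs, and the cell with 510, among them 172 of Adipoq and 302 of Cfd, held 140 UMIs of Lpl and 164 of Scd1, the stearoyl-CoA desaturase, so that genes of fat uptake and synthesis were present without Fabp4. Other cells carried genes outside the fat programme. In 1 cell of H3R26C with 5-Aza, 13 gate UMIs stood beside 1295 UMIs of the skeletal muscle markers, among them 389 of Mylpf and 375 of Acta1, and in 1 cell of H3WT with 5-Aza, 11 gate UMIs, none of them from Adipoq, stood beside 187 UMIs of the matrix gene Mgp. No doublets were removed, and whether such cells are mixtures was not tested.

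The genes that set adipocyte-like cells apart were tested on UMI counts summed per class and library, 8 sums in all, with edgeR's quasi-likelihood test and library as a block. Of 13451 genes tested, without the 5 gate genes, 1124 (8.36%) were higher and 1461 (10.9%) lower in adipocyte-like cells, 2585 (19.2%) in either direction, at a Benjamini-Hochberg adjusted p under 0.05 and an absolute log2 fold change of at least 1, and these percentages are the background for the lists below. Of the genes called, 915 of the higher and 1438 of the lower ones had the same direction in all 4 libraries. The direction is the sign of the log2 ratio, so that a library without a UMI in its adipocyte-like cells counts as lower. Agreement among the lower genes is therefore in part built in for genes with few UMIs. The test sets the class difference over 4 libraries, which are also the 4 conditions, against a variance moderated by that of all genes. A small adjusted p, and the SE derived from the same test, are therefore no direct measure of agreement between libraries. Adrb3, with log2 ratios from 3.10 to 7.37 in the libraries, had an adjusted p of 3.2e-48. Fabp4, with ratios from 6.87 to 10.6, had 0.029. Genes that go with the gate genes follow in part from the choice of the cells. Over all genes tested the median log2 fold change was -0.22, and 43.5% of the genes called were higher. Without TMM scaling the median was -0.42 and 30.2% were higher, and with DESeq2 it was 0.25 and 56.7% were higher, so that changes near these shifts have no fixed direction. With the stricter filter on cells, 935 genes were higher and 1461 lower.

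**Figure D2:**
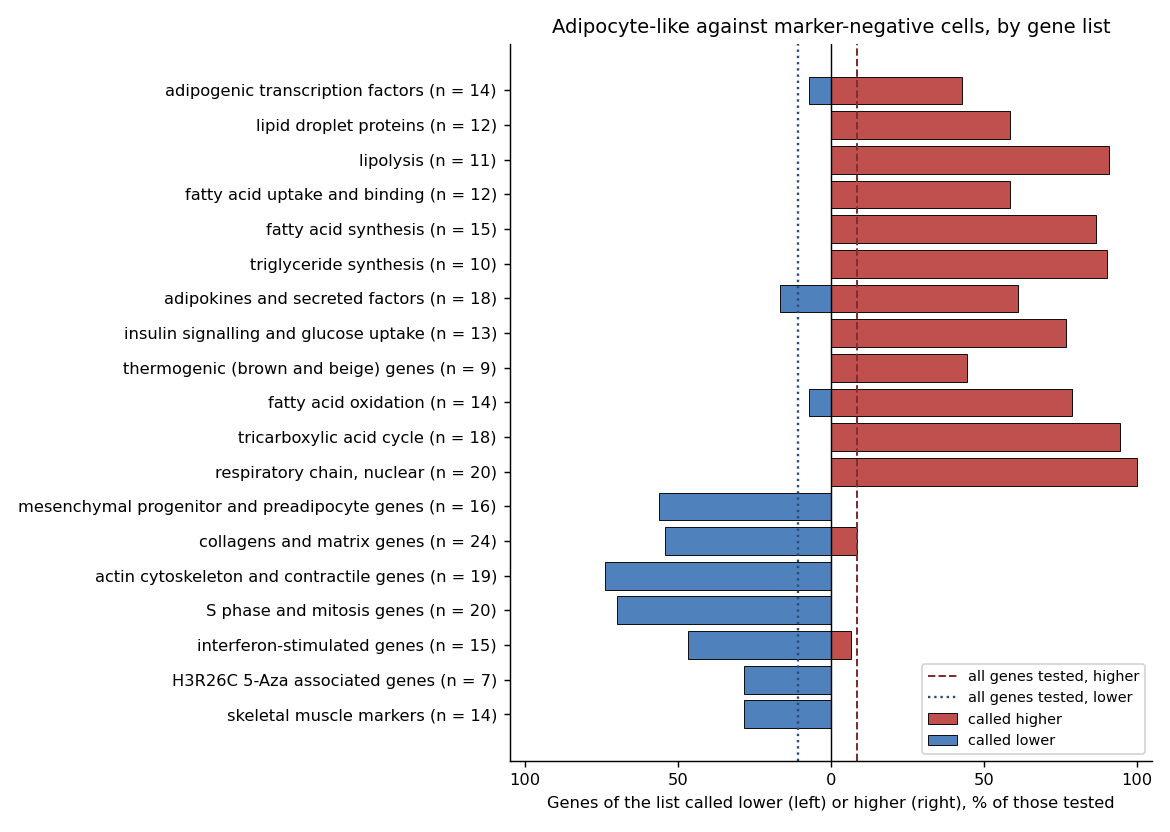
Percentage of the tested genes of each list that were called higher (red, to the right) or lower (blue, to the left) in adipocyte-like than in marker-negative cells, with n the number of genes tested and the dashed and dotted lines the same shares over all genes tested (8.36% higher, 10.9% lower). The lists of fat and energy metabolism extend to the right, up to 20 of 20 for the respiratory chain, and those of progenitor, matrix, actin and cell cycle genes to the left.

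Transcription factors of adipogenesis differed in direction, with 6 of 14 tested higher, 1 lower and a median log2 fold change of 0.93. Pparg was at 113.6, 248.3, 252.0 and 302.0 CPM in adipocyte-like cells and at 26.6, 24.1, 24.6 and 15.1 CPM in marker-negative cells. The lowest adipocyte-like value exceeded the highest marker-negative value by several times, with a log2 fold change of 3.55 ± 0.19 (SE; adjusted p = 1.3e-65; higher in 4 of 4 libraries). Cebpa was at 215.9, 347.6, 526.5 and 420.0 CPM against 8.16, 8.97, 12.4 and 11.95 CPM. The classes did not overlap, and the log2 fold change was 5.35 ± 0.19 (adjusted p = 5.3e-162; 4 of 4 libraries). Also higher were Srebf1 (log2 fold change 3.70), which drives lipid synthesis genes, Klf15 (5.25), a factor of late adipogenesis, Nr1h3 (6.62), the oxysterol receptor LXR alpha, and Rxra (1.36), the partner of PPARG. Cebpd, which acts early in adipogenesis, was at 11.4, 74.5, 25.8 and 72.9 CPM against 92.8, 184.4, 168.2 and 242.1 CPM, and it fell by 1.70 ± 0.21 on the log2 scale (adjusted p = 6.7e-14; lower in 4 of 4 libraries). Cebpb at 0.84 and Ebf1 at -0.68 remained under the fold threshold.

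Lipid droplet proteins were higher for 7 of 12 genes tested, and none was lower (median log2 fold change 1.38). Plin4 was at 776.4, 298.0, 752.6 and 208.3 CPM in adipocyte-like and at 108.2, 64.3, 71.4 and 14.9 CPM in marker-negative cells. It was higher in each library, by 3.25 ± 0.19 on the log2 scale (adjusted p = 1.5e-61), and in both classes it was lower with 5-Aza than with DMSO. Plin2, the perilipin found in most cell types, rose by 2.59, Bscl2, which encodes seipin of droplet biogenesis, by 2.71, and Fitm2, which is needed to form droplets, by 3.96. The caveolae genes Cav1, Cav2 and Cavin2 rose by 1.76, 1.65 and 1.11. Plin3, the perilipin of small droplets, was at -0.74 and was not called, and no UMI of Cidea or Plin5 was found in adipocyte-like cells.

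Lipolysis genes were higher for 10 of 11 genes tested, with the largest median of the lists, 5.35. Pnpla2, the enzyme of the first cut of triglyceride, was at 992.3, 1341, 2145 and 1177 CPM against 27.2, 28.5, 27.2 and 26.1 CPM. Its classes lay far apart (log2 fold change 5.84 ± 0.23, adjusted p = 4.2e-138, 4 of 4 libraries). Lipe, which takes the next step, rose by 6.53 ± 0.22, and Mgll, which takes the last, by 5.49 ± 0.21. The co-activator Abhd5 rose by 2.80, and so did G0s2, an inhibitor of Pnpla2, by 5.35. Adrb3, the beta 3 adrenergic receptor that signals lipolysis in mouse fat, was at 7.57, 59.2, 164.7 and 17.4 CPM in adipocyte-like cells and at most at 0.0741 CPM in marker-negative cells. It was highest in H3R26C with DMSO and rose by 10.86 ± 0.72 (adjusted p = 3.2e-48). The glycerol channel Aqp7 rose by 8.35. Against marker-negative cells matched in UMI total, 6 lipolysis genes were tested and all 6 were called.

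Genes of uptake, binding and activation of fatty acids were higher for 7 of 12 tested, and none was lower (median 2.21). Fabp4, at chr3:10204088-10208576 on the minus strand, was at 1617, 11826, 13183 and 8140 CPM in adipocyte-like cells and at 12.8, 56.6, 7.48 and 68.5 CPM in marker-negative cells. It was lowest in H3WT with DMSO, and no adipocyte-like sum came near a marker-negative one. The log2 fold change was 8.15 ± 1.24 (adjusted p = 0.029; higher in 4 of 4 libraries), and with 3 libraries the call was lost without H3WT DMSO (8.54), without H3WT 5-Aza (8.19) and without H3R26C 5-Aza (8.62). Lpl, which frees fatty acids from lipoproteins, was at 761.2, 1885, 2481 and 3312 CPM against 18.3, 61.6, 28.1 and 63.2 CPM, a rise of 5.82 ± 0.24 (adjusted p = 7.2e-131). Fabp5 rose by 5.57, the acyl-CoA synthetase Acsl1 by 6.12 and the acyl-CoA binding protein Dbi by 3.14. Cd36 had no UMI in adipocyte-like cells of H3WT with DMSO and was at 36.3, 96.9 and 114.6 CPM in the other libraries, against at most 0.504 CPM in marker-negative cells. The other synthetases Acsl3, Acsl4 and Acsl5, at 0.35, 0.76 and 0.15, were not called.

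**Figure D3:**
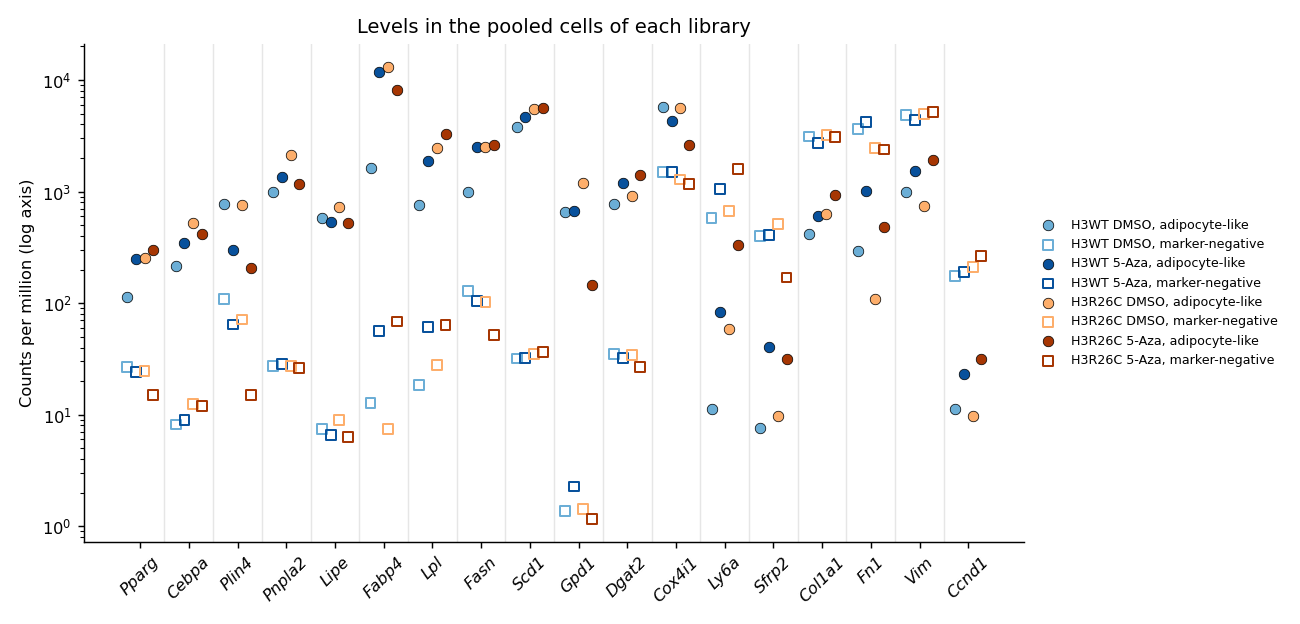
Levels of 18 genes in the summed cells of each library, in CPM on a log axis, with filled circles for adipocyte-like and open squares for marker-negative cells, coloured by library. The genes from Pparg to Cox4i1 lie higher in the adipocyte-like cells of all 4 libraries, and those from Ly6a to Ccnd1 lie lower.

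Fatty acid synthesis was higher for 13 of 15 genes tested, and none was lower (median 2.70). Fasn, fatty acid synthase, was at 992.3, 2489, 2516 and 2635 CPM against 129.6, 103.8, 102.7 and 52.2 CPM (log2 fold change 4.68 ± 0.25, adjusted p = 6.1e-33). Scd1 was at 3784, 4634, 5530 and 5586 CPM against 31.9, 31.96, 35.2 and 36.7 CPM. It varied little within either class and rose by 7.36 ± 0.26 (adjusted p = 8.6e-171). The supply of acetyl-CoA and NADPH followed, with Slc25a1, the citrate carrier, at 2.81, Acly, which cuts citrate, at 2.07, Acaca, acetyl-CoA carboxylase, at 2.46, the malic enzyme Me1 at 2.97 and the pyruvate carboxylase Pcx at 5.96. Elovl5 and Elovl6, elongases, were at -0.24 and 0.35 and were not called.

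Triglyceride assembly was higher for 9 of 10 genes tested, and none was lower (median 3.49). Gpd1, which makes glycerol 3-phosphate, was at 651.4, 670.5, 1198 and 145.8 CPM against 1.36, 2.27, 1.43 and 1.16 CPM. It was lowest in H3R26C with 5-Aza, still far above every marker-negative value, and rose by 8.71 ± 0.34 (adjusted p = 1.2e-20). The acyltransferases followed the order of the pathway, with Gpat3 at 6.35, Agpat2 at 6.46, the phosphatase Lpin1 at 2.20, and Dgat1 and Dgat2, which add the last fatty acid, at 4.38 and 5.24. Lpin2 at -0.69 was not called.

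Adipokines and other secreted factors were mixed, with 11 of 18 tested higher and 3 lower (median 2.00, or 2.15 with genes at 0 set to their bound). Rarres2, which encodes chemerin, was at 412.8, 745.0, 613.8 and 718.6 CPM against 83.2, 105.7, 84.5 and 94.4 CPM, a rise of 2.94 ± 0.19 (adjusted p = 3.6e-50). Agt, angiotensinogen, rose by 6.08, Lcn2, lipocalin 2, by 4.99, Apoe by 2.15 and Vegfa by 1.74. Hp, which encodes haptoglobin, was at 11.4, 341.9, 96.9 and 5020 CPM against 59.9, 42.3, 81.1 and 30.9 CPM. It was thus below the marker-negative value in H3WT with DMSO and highest in H3R26C with 5-Aza, and was not called (2.58 ± 2.21). The chemokine Ccl2 (-3.95) and the growth factor Fgf10 (-1.48) were lower, and C1qtnf2, with no UMI in adipocyte-like cells, was at least 2.17-fold higher in marker-negative cells. Against marker-negative cells matched in UMI total, 5 of 9 tested were called higher, and without the library block 7.

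Insulin signalling and glucose uptake were higher for 10 of 13 genes tested, and none was lower (median 1.39). The insulin receptor Insr rose by 2.22, its substrates Irs1 and Irs2 by 1.39 and 1.33, the kinase Akt2 by 1.47, and Slc2a4 by 6.65. Slc2a4 was at 3.79, 15.3, 38.8 and 27.8 CPM against at most 0.376 CPM, few UMIs but in each library above the marker-negative cells. The widely expressed Slc2a1 and Akt1, at -0.71 and -0.66, were not called.

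Most genes of mitochondrial metabolism were higher. All 20 nuclear genes of the respiratory chain were called higher, with a median of 1.87, and 17 of 18 of the tricarboxylic acid cycle, with a median of 1.76. Summed over the 20 respiratory chain genes, adipocyte-like cells were at 34593, 26227, 39396 and 19513 CPM and marker-negative cells at 9083, 9155, 10215 and 9034 CPM. The marker-negative sums were nearly equal, and the adipocyte-like sums were higher with DMSO than with 5-Aza in both lines. Cox4i1, a subunit of cytochrome c oxidase, was at 5704, 4250, 5608 and 2635 CPM against 1503, 1500, 1282 and 1174 CPM, a rise of 1.88 ± 0.21 (adjusted p = 3.4e-18). In the cycle, citrate synthase (Cs) rose by 2.33, and Idh2, at -0.18, was not called. Fatty acid oxidation was higher for 11 of 14 genes and lower for 1, with a median of 1.88. Its dehydrogenases Acadm, Acadl and Acadvl rose by 2.05, 1.75 and 2.38 and the carnitine transferase Cpt2 by 2.78, whereas Cpt1a, the carnitine transferase of the outer membrane, fell by 1.27 ± 0.35 (adjusted p = 0.0019; lower in 4 of 4 libraries).

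Some genes of brown and beige fat were higher, but the defining marker was missing. No UMI of Ucp1, the uncoupling protein of thermogenic fat, was found in the 69 cells, nor of Cidea, Elovl3, Tmem26 or Zic1. Of 9 thermogenic genes tested, 4 were higher and none lower (median 1.59), namely Cox7a1, a muscle and fat isoform of cytochrome c oxidase, at 3.82, the co-activator Ppargc1a at 1.42, Cpt1b at 2.57 and Gk at 1.59. Without H3WT DMSO 2 were called, since Ppargc1a (0.84) and Cpt1b (1.74) were lost. Cpt1b was also lost without H3R26C DMSO (2.23), and Gk without H3WT 5-Aza (1.38) and without H3R26C DMSO (1.08), where they rest on 5 and 13 UMIs. Ppargc1a was at 147.7, 17.2, 64.6 and 3.47 CPM against 35.9, 12.04, 40.7 and 1.76 CPM. It was higher with DMSO than with 5-Aza in both classes and both lines. Cox8b, another oxidase isoform, was at 1076, 414.5, 432.9 and 107.6 CPM against 7.24, 27.3, 7.24 and 11.2 CPM, and with a log2 fold change of 5.35 ± 1.08 its adjusted p was 0.056. Several alternatives called Cox8b higher, among them DESeq2 (5.32), thinned cells (5.20), cells matched in UMI total (5.81) and no replicate block (5.47). It was not called without TMM scaling, without the filter on low counts, with a gate of at least 20 UMIs or under the stricter filter. Nor was it called in any fit that left out 1 library. The list sums were 1447, 580.7, 642.8 and 239.5 CPM against 160.9, 143.4, 177.4 and 134.3 CPM.

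Genes of the progenitor state were lower, with 9 of 16 tested called lower and none higher (median -2.63, or -1.84 with genes at 0 set to their bound). Ly6a, which encodes the progenitor surface marker Sca-1, was at 11.4, 84.0, 58.1 and 333.3 CPM in adipocyte-like and at 582, 1047, 673 and 1587 CPM in marker-negative cells. The classes did not overlap, the level was higher with 5-Aza than with DMSO in both classes and both lines, and the log2 fold change was -3.20 ± 0.23 (adjusted p = 4.9e-39; lower in 4 of 4 libraries). After thinning, a Ly6a UMI was found in 16.7%, 37.9%, 30.8% and 60.0% of adipocyte-like cells and in 54.2%, 71.4%, 61.0% and 87.5% of marker-negative cells. Also lower were Dlk1, the preadipocyte factor (log2 fold change -3.497), Sfrp2, a Wnt antagonist (-3.72), the growth factor receptors Pdgfra (-2.81) and Pdgfrb (-2.08), Postn, periostin (-2.74), and Thy1 (-2.53). Pi16, a marker of fibroblast progenitors, left 1 UMI in adipocyte-like cells and was 80.8-fold higher in marker-negative cells (95% interval 14.5 to 3192), and Cd34, with no UMI, was at least 3.01-fold higher there.

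The matrix genes were lower for 13 of 24 tested and higher for 2 (median -1.48). The share called higher was close to the 8.36% of all genes tested. Col1a1, of fibrillar collagen I, was at 416.6, 601.7, 633.1 and 926.9 CPM against 3114, 2718, 3212 and 3109 CPM, and it fell by 2.08 ± 0.21 (adjusted p = 3.7e-22; lower in 4 of 4 libraries). Also lower were Col1a2 (log2 fold change -2.12), Col3a1 (-1.49), Fn1, fibronectin (-2.83), Lox, which crosslinks collagen (-2.65), Fbn1, fibrillin (-2.91), and the protease inhibitor Timp3 (-3.06). Col4a1 was at 1276, 957.0, 943.2 and 413.1 CPM against 415.7, 417.3, 330.4 and 168.3 CPM. Col4a1 and Col4a2, the chains of basement membrane collagen IV, thus rose in each library, by 1.61 ± 0.19 (adjusted p = 1.2e-15) and 1.41 ± 0.18 (adjusted p = 3.0e-13). The collagen VI genes Col6a1, Col6a2 and Col6a3, at -0.01, -0.01 and 0.87, were not called, and Col6a3 passed the fold threshold without H3R26C DMSO (1.02). Mgp, the matrix Gla protein, fell by 2.29 ± 0.60 (adjusted p = 0.045), a call that was lost without H3R26C 5-Aza (-2.18).

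The actin cytoskeleton and its regulators were lower for 14 of 19 genes tested, and none was higher (median -1.77). Vim, vimentin of intermediate filaments, was at 988.5, 1528, 749.4 and 1916 CPM against 4849, 4345, 4918 and 5134 CPM, and it fell by 1.77 ± 0.21 (adjusted p = 5.8e-16; lower in 4 of 4 libraries). The cytoplasmic actins Actb (log2 fold change -1.26) and Actg1 (-1.48), Zyx, zyxin of focal adhesions (-2.89), and Ccn2, a target of mechanical signalling (-3.39), were lower too. Acta2, smooth muscle actin, had no UMI in the adipocyte-like cells of either DMSO library and 134 UMIs in H3R26C with 5-Aza, 125 of them in the cell rich in muscle genes, and was not called (-2.66 ± 1.41), but it was called lower without H3R26C 5-Aza (-4.65).

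Genes of S phase and mitosis were lower for 14 of 20 tested and higher for none (median -1.28), and under thinning to 5000 UMIs 6 were called. Ccnd1, cyclin D1, was at 11.4, 22.9, 9.69 and 31.2 CPM against 174.2, 190.7, 210.9 and 263.1 CPM, and it fell by 3.24 ± 0.25 (adjusted p = 1.6e-36; lower in 4 of 4 libraries). Mki67 was found in 4 of the 69 cells, and its fall of 1.03 ± 0.28 (adjusted p = 0.0014) was lost without H3WT DMSO (-0.85) and without H3WT 5-Aza (-0.87). The replication genes Mcm3 (-2.69) and Mcm6 (-2.16) were lower, and Rrm2, with 2 UMIs in adipocyte-like cells, was 13.7-fold higher in marker-negative cells (95% interval 3.78 to 112.8). Of 4 inhibitors of cyclin-dependent kinases tested, Cdkn2c, which encodes p18, rose by 2.43 ± 0.18 (adjusted p = 6.0e-40; higher in 4 of 4 libraries), Cdkn1b (-1.35) and Cdkn2d (-1.12) were lower, and Cdkn1a, p21, was at -0.28 and not called (median of the list -0.70).

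As list sums, markers of the other lineages this line can enter were low or absent, except the muscle lists in H3R26C with 5-Aza. Osteoblast and chondrocyte markers were at most 27.8 and 94.7 CPM as list sums in adipocyte-like cells, against 45.9 to 60.4 and 212.7 to 417.7 CPM in marker-negative cells, and 2 of 3 and 3 of 4 tested were lower (medians -2.16 and -2.84). No UMI of Ibsp, Sp7, Alpl or Dmp1 was found, and Sox9, the chondrogenic factor and the most abundant gene of these lists, fell by 2.27 ± 0.21. Of the smooth muscle list 1 of 4 tested was lower, Smtn (-1.62, list median -1.06). Its sum was 18.9, 43.9, 19.4 and 513.8 CPM against 278.2, 552.8, 360.6 and 581.8 CPM. In H3R26C with 5-Aza, 1 cell held 52.2 of these UMIs per 10000, against a median of 0.436. The endothelial markers had no UMI in adipocyte-like cells, and of 2 tested Tek was called lower (at least 1.64-fold higher in marker-negative cells). Of the blood and macrophage markers, whose most abundant gene was Lyz2, lysozyme, at a mean of 6.01 CPM, 3 were tested and none was called (median -0.28, and 0.64 over 2 genes without Csf1r, whose level in marker-negative cells was under the limit that no UMI allows in adipocyte-like cells, so that the sign turned), with no UMI of Ptprc, Adgre1 or Csf1r. The skeletal muscle list summed to 15.1, 271.2, 16.2 and 4659 CPM against 25.9, 2292, 19.3 and 2827.5 CPM, with 4 of 14 tested lower and none higher (median -0.54). It was low with DMSO in both classes, and its high value in H3R26C with 5-Aza rested on 1 cell that held 1295 of the 1342 UMIs. The muscle list depended on the settings, since 1 gene was called lower without H3WT 5-Aza, 0 with DESeq2, 0 without the replicate block, and 11 of 12 tested with a gate of at least 20 UMIs, which leaves out 8 of the 69 cells, that cell among them. Its median turned positive with DESeq2 (1.39), without H3WT 5-Aza (0.50, over 7 genes tested) and without the replicate block (0.14). With cells rich in muscle markers left out of both classes, 3 of 12 were called lower. Of the lists above, the medians of the osteoblast, endothelial and blood markers also changed sign with DESeq2.

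Beyond the lists, the genes were ranked by fold change among those called with the same direction in 4 of 4 libraries and at least 50 CPM in the higher class, 599 higher and 494 lower ones. Among the 15 highest were Wfdc21 (log2 fold change 10.89), Adrb3 (10.86), Orm1 (10.64), S100a8 (10.59), Thrsp (9.94), Adig (9.84), Slc36a2 (9.48), Gpd1 (8.71), Lgals12 (8.40), Car3 (8.20), Fabp4 (8.15), Ephx2 (7.96), Mrap (7.92) and Ltc4s (7.68). They include the lipogenic regulator Thrsp, adipogenin (Adig), the adipocyte galectin Lgals12, the melanocortin receptor partner Mrap and carbonic anhydrase 3 (Car3), and the acute phase protein Orm1 and the alarmin S100a8 stood beside these fat genes. Wfdc21 was at 106.0, 1091, 810.8 and 1028 CPM in adipocyte-like and at most 0.642 CPM in marker-negative cells. It was lowest in H3WT with DMSO and rose by 10.89 ± 0.29 (adjusted p = 2.8e-162). Several of these calls rest on all 4 libraries together: Thrsp was lost without H3R26C DMSO (9.61) and without H3R26C 5-Aza (9.84), Adig without H3WT 5-Aza (10.20) and without H3R26C DMSO (9.44), Ephx2 without H3WT 5-Aza (8.10), H3R26C DMSO (8.19) or H3R26C 5-Aza (8.24), and Mrap without H3WT DMSO (7.84), H3WT 5-Aza (8.53) or H3R26C 5-Aza (8.58). The 10 lowest were Pi16, the linker histone gene Hist1h1b (-4.33), the water channel Aqp1 (-4.24), Ccl2 (-3.95), Mfap5 of microfibrils (-3.93), Apod (-3.88), Clec3b (-3.82), Sfrp2 (-3.72), Anxa3 (-3.71) and Smoc2 (-3.70). Clec3b, which encodes tetranectin, was at 83.3, 219.7, 19.4 and 83.3 CPM against 1705, 2238, 1389 and 748.0 CPM, so that the classes did not overlap.

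The 69 cells differed widely in how much of the programme they held. Gate UMIs ran from 5.18 to 371.2 per 10000 UMIs of a cell with a median of 90.8, and fatty acid uptake genes from 33.5 to 651.5 with a median of 194.9. Over the cells, Spearman's rho of the gate UMIs per 10000 was 0.81 with fatty acid uptake, 0.65 with fatty acid synthesis, 0.63 with triglyceride synthesis, 0.54 with lipolysis and 0.52 with insulin signalling. It was lower for the respiratory chain (0.39), fatty acid oxidation (0.40), the tricarboxylic acid cycle (0.37) and lipid droplet proteins (0.33), and near 0 for transcription factors (0.12), adipokines (0.11) and thermogenic genes (-0.05). Actin genes (-0.49) and matrix genes (-0.40) ran the other way, and progenitor genes less so (-0.16). Within the 4 libraries rho lay between 0.69 and 0.70 for fatty acid uptake, and between -0.62 and -0.34 for actin genes. Other lists varied more between libraries, from 0.04 to 0.85 for insulin signalling and from -0.10 to 0.77 for lipid droplet proteins. The range was -0.11 to 0.75 for the tricarboxylic acid cycle and 0.08 to 0.57 for the respiratory chain. It was 0.35 to 0.83 for fatty acid synthesis, 0.375 to 0.85 for triglyceride synthesis and 0.33 to 0.82 for lipolysis. Adipokines ran from -0.22 to 0.53 and transcription factors from -0.03 to 0.38. The order of the lists thus differed between libraries. In H3R26C with 5-Aza, lipid droplet proteins (0.77) lay above fatty acid uptake (0.70) and lipolysis (0.475). These values describe cells that share a library and a common denominator, so that no test was made. With the depth of a cell rho was -0.13, from -0.76 in H3WT with DMSO to 0.40 in H3R26C with DMSO, and with the mitochondrially encoded share it was 0.28 over all cells, and 0.62, 0.63, -0.08 and 0.57 within the libraries.

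**Figure D4:**
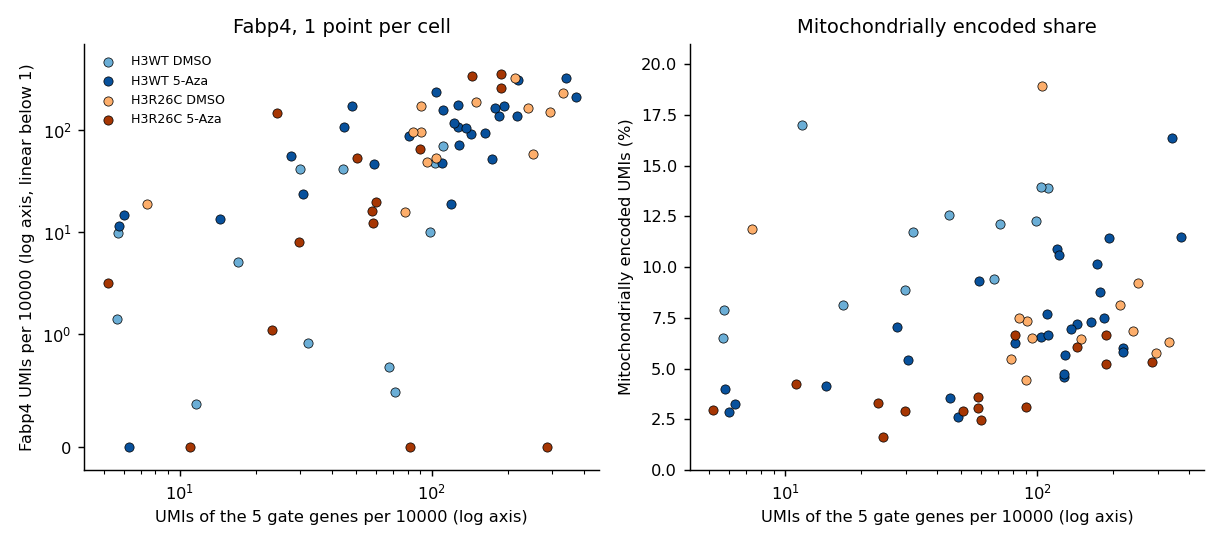
Each point is 1 of the 69 adipocyte-like cells, coloured by library, with its UMIs of the 5 gate genes per 10000 on the x axis (log) against its Fabp4 UMIs per 10000 (left, log axis that is linear below 1) and against its mitochondrially encoded share in % (right). Fabp4 tends to rise with the gate genes, but 4 cells are at 0, 3 of them from H3R26C with 5-Aza. In H3WT with DMSO, cells at 67.5 and 71.4 gate UMIs per 10000 held only 2 and 1 Fabp4 UMIs. The highest mitochondrial shares, up to 18.9%, are found in both DMSO libraries and in H3WT with 5-Aza.

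A few cells stood apart in other gene groups. Cell cycle genes reached 57.8 per 10000 UMIs in 1 cell of H3R26C with 5-Aza and 41.3 in 1 of H3R26C with DMSO, against a median of 1.17 over all 69. Interferon-stimulated genes reached 210 per 10000 in 1 cell of H3WT with 5-Aza, 245 UMIs of which were Ifi27l2a, against a median of 10.2. Adipokine genes were highest in 3 cells of H3R26C with 5-Aza, between 193.6 and 211.7 per 10000 against a median of 28.9.

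Between the conditions, adipocyte-like cells of H3R26C and H3WT were compared within a treatment, and of 5-Aza and DMSO within a line, to ask how the mutant histone and the drug bear on the cells that reach this state. These are ratios of 1 library to another, with a pseudocount of 1 CPM, over genes with at least 100 CPM in either library and a UMI in at least 25% of the adipocyte-like cells of the higher one. With 5-Aza, 96 of 1769 such genes (5.43%) were at least 2-fold higher and 65 (3.67%) at least 2-fold lower in H3R26C than in H3WT, and with DMSO 118 of 1715 (6.88%) and 110 (6.41%). With 5-Aza against DMSO, 133 of 1731 genes (7.68%) were higher and 74 (4.27%) lower in H3WT, and 206 of 1790 (11.5%) and 138 (7.71%) in H3R26C. In the marker-negative cells, whose sums cover far more cells and so carry less counting error, fewer of the same genes passed the fold, namely 35 (1.98%) higher and 50 (2.83%) lower for H3R26C against H3WT with 5-Aza, 10 (0.583%) and 4 (0.233%) with DMSO, 32 (1.85%) and 3 (0.173%) for 5-Aza against DMSO in H3WT, and 79 (4.41%) and 36 (2.01%) in H3R26C. In that order, 23 of the 35, 25 of the 50, 5 of the 10, 2 of the 4, 23 of the 32, 2 of the 3, 58 of the 79 and 15 of the 36 had also passed in the adipocyte-like cells. The comparisons share libraries, so that they are not independent of each other.

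Several core fat genes, Fabp4, Pparg, Cebpa, Lpl and Fasn among them, had their lowest level in H3WT with DMSO. Fabp4 in H3R26C against H3WT had a log2 ratio of 3.03 with DMSO and -0.54 with 5-Aza, and its ratio of 5-Aza to DMSO was 2.87 in H3WT and -0.70 in H3R26C. Lipe had log2 ratios of 0.31 and -0.03 in H3R26C against H3WT with DMSO and 5-Aza, and Scd1 of 0.55 and 0.27, so that both varied by less than 2-fold. Summed fatty acid uptake genes were at 11229 CPM in H3WT with DMSO and at 25759, 33420 and 21748 CPM in the others, and fatty acid synthesis genes at 8612 and at 11251, 12617 and 11581 CPM. Triglyceride synthesis genes summed to 3761, 5047, 6212 and 5179 CPM. Other groups did not follow this order, since lipid droplet proteins summed to 2526, 2002, 2668 and 2281 CPM and fatty acid oxidation genes to 3238, 2552, 3088 and 2045 CPM, and Plin4 was at its highest level in H3WT with DMSO (776.4 CPM). The adipocyte-like cells of H3WT with DMSO were also those with the lowest gate UMIs, a median of 38.3 per 10000, and with the highest mitochondrially encoded share, and the part of these in the ratios was not tested.

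**Figure D5:**
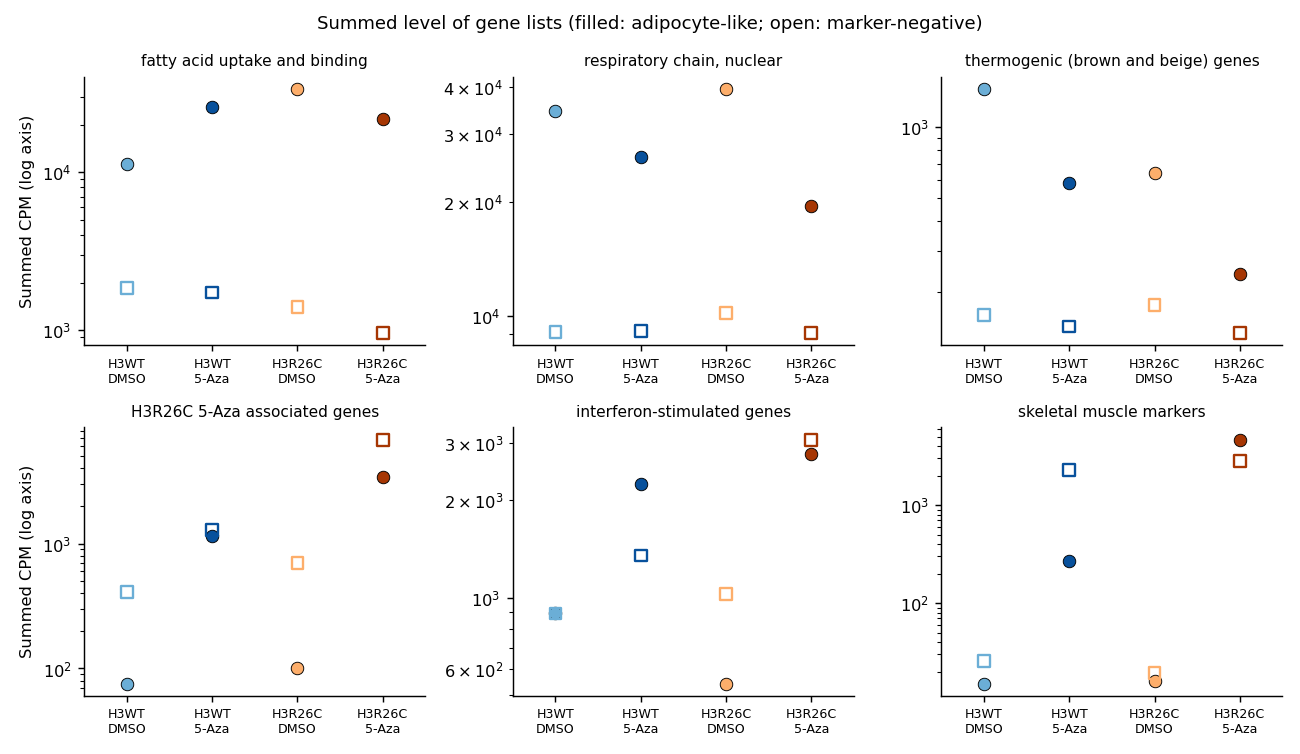
Summed level of 6 gene lists in each library, in CPM on log axes that differ between panels, with filled circles for adipocyte-like and open squares for marker-negative cells. Respiratory chain and thermogenic genes are higher with DMSO than with 5-Aza in the adipocyte-like cells of both lines, and the H3R26C 5-Aza associated, interferon-stimulated and muscle genes are higher with 5-Aza in both classes.

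In 5-Aza against DMSO cells the list sums of oxidative and thermogenic metabolism were lower and that of progenitor genes higher. Thermogenic genes had a log2 ratio of -1.32 in H3WT and -1.42 in H3R26C as list sums, the respiratory chain -0.40 and -1.01, and the tricarboxylic acid cycle -0.44 and -0.93. Cox8b gave 1076 of the thermogenic 1447 CPM in H3WT with DMSO and 414.5 of 580.7 with 5-Aza. In H3R26C it gave 432.9 of 642.8 with DMSO and 107.6 of 239.5 with 5-Aza. The H3R26C sums rest in part on 1 cell each, at 42.9 thermogenic UMIs per 10000 with DMSO and 11.1 with 5-Aza. Medians per cell with DMSO and 5-Aza were 13.5 and 4.37 in H3WT, and 3.66 and 1.41 in H3R26C. The median mitochondrially encoded share of the same cells was also lower with 5-Aza, at 6.64% against 11.9% in H3WT and 3.29% against 6.87% in H3R26C, and its part in these ratios was not tested. Progenitor genes were at 0.65 and 1.26, and their sum was higher with 5-Aza in marker-negative cells too, at 3604 against 2902 CPM and 3196 against 2755 CPM. Ly6a was 7.40-fold higher with 5-Aza in H3WT (95% interval 2.37 to 37.2, from 44 against 3 UMIs), with a log2 ratio of 2.50 in H3R26C, and in marker-negative cells its log2 ratios were 0.85 and 1.24. In H3WT the 5 genes with the smallest ratio were Ppargc1a (-3.03, and -1.50 in marker-negative cells), Phex (-2.23), Slc25a42 (-2.18), a mitochondrial CoA carrier, Coq8a (-2.16), of coenzyme Q synthesis, and Jade1 (-1.89). Those with the largest were Trf, transferrin, Ecrg4, Wfdc12, Spp1, osteopontin, and Ttn, titin. Trf, Ecrg4, Wfdc12 and Ttn had no UMI with DMSO and were at least 50.8-fold, 15.5-fold, 13.1-fold and 9.58-fold higher with 5-Aza, and Spp1 was 144-fold higher (25.7 to 5717, from 286 against 1 UMI). In H3WT with 5-Aza, 1 cell held 46 of the 78 Wfdc12 UMIs, 25 of 57 of Ttn, 85 of 302 of Trf, 20 of 92 of Ecrg4 and 72 of 286 of Spp1. All of them were also higher with 5-Aza in marker-negative cells of H3WT. The log2 ratios there were 3.10 for Trf, 1.48 for Ecrg4, 3.29 for Wfdc12, 1.62 for Spp1 and 8.89 for Ttn.

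In H3R26C the smallest 5-Aza to DMSO ratios were those of Adrb3 (-3.17), Gpd1 (-3.03), Prxl2b (-2.33), Sort1 (-2.18), a sorting receptor of glucose transporter vesicles, and Ahcyl2 (-2.13). In the marker-negative cells Gpd1 was at nearly the same low level with both treatments (log2 ratio -0.17), and Adrb3 was close to 0 with both. The largest ratios were those of Spp1, Mylpf, Acta1, Slpi and Acta2, which had no UMI in the 13 cells with DMSO and were at least 254.7-fold, 141.1-fold, 138.6-fold, 76.3-fold and 48.002-fold higher with 5-Aza. Of their UMIs in the 15 cells with 5-Aza, 1 cell held 540 of 711 for Spp1, 389 of 394 for Mylpf, 375 of 387 for Acta1, 96 of 213 for Slpi and 125 of 134 for Acta2, so that all but Slpi rest mainly on single cells. In marker-negative cells of H3R26C these genes were higher with 5-Aza too. The log2 ratios there were 3.36 for Spp1, 8.69 for Mylpf, 9.26 for Acta1, 3.94 for Slpi and 0.58 for Acta2.

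Of H3R26C against H3WT with 5-Aza, the largest ratios rest on single cells too. Mylpf, Tnni2 and Acta1, muscle genes with 389 of 394, 59 of 62 and 375 of 387 UMIs in 1 cell, were at 5.44, at 37.6-fold (95% interval 12.3 to 187.1) and at 4.84. Without the cell with the most UMIs in each library Mylpf was at -0.43. With a gate of at least 20 UMIs the log2 ratios of Mylpf and Acta1 both turned negative. The imprinted RNA H19 (4.54, 96 of 122 UMIs in 1 cell) and Ube2c of mitosis (3.91, 23 of 37) followed. The smallest were Mmp11, 11.4-fold higher in H3WT (3.71 to 56.6), elastin (Eln, -3.03), Lcn2 (-2.81), Zfp36 (-2.49) and Thrsp (-2.48). These also rested in part on single cells of H3WT, where 1 cell held 29 of 62 UMIs for Mmp11, 38 of 63 for Eln, 36 of 67 for Lcn2 and 116 of 307 for Thrsp, against 19 of 135 for Zfp36. Eln and Zfp36 had nearly the same ratios in marker-negative cells, -3.07 and -2.67. Thrsp (-1.64) and Lcn2 (-0.68) were lower there too, at 0.0825 against 2.37 CPM and at 0.991 against 2.20 CPM in H3R26C against H3WT. At levels this close to the pseudocount of 1 CPM, it pulls both ratios towards 0. Ly6a had a log2 ratio of 1.97 in adipocyte-like and 0.60 in marker-negative cells.

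With DMSO, the largest ratios of H3R26C to H3WT were those of Cd302, S100a8, Retn, Adrb3 and Mrap. Retn, a gate gene that chose the cells, had a log2 ratio of 4.61, where H3WT held 22 UMIs, 18 of them in 1 cell. Adrb3 was 21.7-fold higher (95% interval 5.72 to 184.4, from 51 against 2 UMIs), Mrap 18.2-fold (5.95 to 90.6), S100a8 31.6-fold (8.43 to 265.4) and Cd302, with no UMI in H3WT, at least 9.10-fold. The smallest were Nr4a1, an immediate early gene with no UMI in H3R26C and at least 12.9-fold higher in H3WT, Rnase4, 62.7-fold higher in H3WT (16.9 to 524.6), Mmp11 (-4.13), Phex (-4.00) and Fstl1 (-3.15). In marker-negative cells Rnase4, Phex and Fstl1 had log2 ratios of -0.17, -0.02 and -0.43, which were smaller than in adipocyte-like cells. Of the UMIs in H3R26C, 1 cell held 267 of 636 for Retn, 25 of 64 for Mrap, 18 of 51 for Adrb3, 20 of 74 for S100a8 and 5 of 32 for Cd302. Of those in H3WT, 1 cell held 28 of 64 for Mmp11, 12 of 33 for Nr4a1, 34 of 107 for Rnase4, 19 of 86 for Phex and 147 of 578 for Fstl1.

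The H3R26C 5-Aza associated genes, Spp1, Plac8, Enpp2, Hmga2, Hopx, Msln, Ly6e and Ly6c1, were chosen for their rise in H3R26C cells given 5-Aza. In adipocyte-like cells their sum was also higher with 5-Aza than with DMSO in both lines. Their sum was 75.7, 1150, 100.1 and 3398.5 CPM in adipocyte-like and 407.4, 1286, 701.8 and 6804 CPM in marker-negative cells. It was highest in H3R26C with 5-Aza in both classes, where 540 of the Spp1 UMIs came from 1 adipocyte-like cell. In adipocyte-like cells with 5-Aza, Spp1 gave 546.3 of the 1150 CPM in H3WT and 2468 of the 3398.5 CPM in H3R26C. The other genes of the list are not given by treatment here. Since the list was chosen on these libraries, its direction is no independent evidence. Between the classes, 2 of 7 tested were lower in adipocyte-like cells, Hmga2, 21.1-fold higher in marker-negative cells (95% interval 5.85 to 174.4), and Ly6c1 (-1.24), with a list median of -0.68, and 4 were lower without H3WT 5-Aza. Interferon-stimulated genes summed to 897.6, 2246, 542.7 and 2781 CPM against 892.6, 1348.5, 1023 and 3069 CPM, and were higher with 5-Aza in both classes and both lines. Of 15 tested, 7 were lower in adipocyte-like cells, among them Isg15 (-1.83) and Bst2 (-1.74), and 1 was higher, with a median of -1.47, and without the library block 0 were called lower.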

How the data were processed

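Single-cell RNA was measured in 4 libraries, 1 per condition. The authors aligned and counted the reads with Cell Ranger on mm10, and the deposited values are raw UMI counts per gene and barcode for 32285 genes, with Cell Ranger 6 and Seurat 4 named in the submitters' processing notes. Every value column was mapped to its sample. The matrices held 39891 barcodes, of which 22049 passed the filter on cells. Cells were chosen by the rule given above, no doublets were removed, and no clustering was used. The cells, the lists of genes and the tests were chosen with earlier results of these data known, and the H3R26C 5-Aza associated list was taken from them. Counts were summed per class and library and tested in edgeR 4.0.16 (R 4.3.3, quasi-likelihood, TMM, filtering by expression, library as a block, gate genes left out), with Benjamini-Hochberg adjustment over the genes tested. The block pairs both classes of the same library, since they were made from the same culture. DESeq2 1.42.0, other filters, gates and scalings, and fits leaving out 1 library were alternatives. Intervals were computed with scipy 1.17.1, and tables with pandas 2.3.3 under Python 3.11.15. On simulated counts for adipocyte-like against marker-negative cells (14058 genes), 50 of 50 genes with a log2 change of 2, 50 of 50 with -2, 30 of 50 with 1 and 24 of 50 with -1 reached the adjusted p threshold. Of 13858 unchanged genes, 4 reached it together with an absolute log2 fold change of at least 1. The changed genes were drawn from the more abundant ones, and all genes had the same dispersion (0.0353). These rates may therefore not hold for genes with few UMIs or a larger spread. Shares have exact Clopper-Pearson intervals at 95% and low counts exact intervals, and a gene at 0 was set to 3 UMIs, summed over a library or, between classes, over all adipocyte-like cells, to give a lower bound. Named genes were the 15 highest and 10 lowest called ones described above, members of the lists, and in each comparison of conditions the 5 largest and 5 smallest ratios. A few genes that the rule names are not reported here. Single cells described for their values, and the key genes set beside the conditions, were singled out after their values were seen. Promoter windows came from RefSeq (GRCm38.p6), and gene positions from GENCODE.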

Additional observations from a re-analysis of the deposited data

Results flagged for a closer look

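The share of adipocyte-like cells moved in opposite directions with 5-Aza in the 2 lines, to 1.496 times the DMSO share in H3WT and to 0.716 times in H3R26C. Both counting intervals include 1. Under the stricter filter on cells the ratios were 3.34 (1.23 to 11.3) in H3WT and 0.978 (0.412 to 2.38) in H3R26C. With 1 library per condition this difference and those that follow were not tested. Retn, resistin, had log2 ratios of 5-Aza to DMSO of 4.34 in H3WT and -1.82 in H3R26C, and ratios of H3R26C to H3WT of -1.56 with 5-Aza and 4.61 with DMSO. Cfd, adipsin, showed the same signs, with 1.54 and -1.85 for 5-Aza against DMSO in H3WT and H3R26C, and -1.17 and 2.21 for H3R26C against H3WT with 5-Aza and DMSO. Both genes were used to choose the cells, and in H3WT with DMSO 18 of 22 Retn UMIs lay in 1 cell. Spp1, osteopontin, had log2 ratios of H3R26C to H3WT of 2.17 with 5-Aza and -2.26 with DMSO, where the latter compares 0 UMIs with 1.

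Gate UMIs were also found in barcodes that failed the filter on cells, which the main comparisons did not use. At least 1 gate UMI was found in 1.58% of 2529 such barcodes in H3WT with DMSO, 3.45% of 9009 in H3WT with 5-Aza, 2.37% of 1813 in H3R26C with DMSO and 1.63% of 4491 in H3R26C with 5-Aza. Of these barcodes, 1, 3, 0 and 0 passed the gate of 10 UMIs.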

How the results depend on the processing

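Over all alternatives, 2409 values of 162 gene fold changes kept their direction and side of the threshold, 103 kept the direction and missed it, 46 newly passed it and 1 reversed. Leaving out 1 library gave between 943 and 1113 genes higher and between 1205 and 1382 lower, and 15 named or listed genes lost a call in at least 1 such fit while 5 gained one. With DESeq2 953 genes were lower, against marker-negative cells matched in UMI total 867, and with cells thinned to 5000 UMIs 628 were higher and 959 lower. Without the replicate block 1026 were higher and 1058 lower.

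The number of list genes called moved as follows. With matched cells, where fewer genes were tested, 6 of 6 lipolysis genes and 5 of 9 adipokines were higher, and 7 of 18 adipokines without the replicate block. Of thermogenic genes 2 were higher without the replicate block and when thinned (6 tested), and 2 to 4 without 1 library. Of S phase and mitosis genes 6 were lower when thinned. Of interferon-stimulated genes 4 were lower with DESeq2, 0 without the replicate block, and 3 with matched cells and when thinned. Of H3R26C 5-Aza associated genes 1 was lower without the replicate block, with matched cells and when thinned, 4 with a gate of 20 UMIs, and 2 to 4 without 1 library. Of skeletal muscle markers 0 were lower with DESeq2, without the replicate block and with matched cells, 2 under the stricter filter and when thinned, 11 of 12 with a gate of 20 UMIs, 7 of 8 with only cells holding all 5 gate genes, and 1 to 6 without 1 library. The last gate, a minimum of 10 CPM in either class (1083 higher, 1080 lower) and leaving out cells rich in muscle markers (1165 higher, 1503 lower, with 18 of 19 actin genes lower) were chosen after seeing the data.

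Reversals were few. Myog was at 2.08 with DESeq2 (-1.84 in edgeR), and of H3R26C against H3WT with 5-Aza, Mylpf was at -1.05 with a gate of 20 UMIs and -0.43 without the cell with the most UMIs, and Acta1 at -0.16 with that gate. The cause of these changes was not tested. The share of adipocyte-like cells in H3WT with DMSO was 0.141% under the stricter filter, and its 5-Aza to DMSO ratio 3.34 (1.23 to 11.3). With 12 to 29 cells per library, 3 UMIs set the limit at 5.73 to 11.4 CPM.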
